A study of Mus musculus with 4 samples.

Results

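The heat shock and chaperone genes of colonic CD4 T cells were described here as 83 genes among the 25724 genes of the counts table. They were chosen by symbol, as the genes whose names begin with Hsp, Dnaja, Dnajb, Dnajc or Cct2 to Cct8, with the matrix proteoglycan gene Hspg2 left out. The 4 stress-induced members Hspa1a, Hspa1b, Dnajb1 and Hsph1 were kept apart from the 79 constitutive members. Each gene was followed across 1050 cells of 1985 barcodes, with the cells divided by detection of Foxp3, Gata3 and Ikzf2.

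Molecular chaperones help proteins fold, keep unfolded chains from clumping and hand damaged proteins on for degradation. HSP70 proteins hold exposed stretches of a client, J proteins (the Dnaj genes) bring the client and start the ATP cycle, and nucleotide exchange factors release it. HSP90 matures kinases and nuclear receptors, the CCT ring folds actin and tubulin, and the endoplasmic reticulum and mitochondria carry their own sets. A small group of these genes is switched on by heat shock factor HSF1, which binds repeats of GAA in alternating orientation, while most chaperone genes are expressed in unstressed cells. Foxp3 is the defining transcription factor of regulatory T cells, Gata3 marks type 2 helper cells and a share of tissue regulatory T cells, and Ikzf2 encodes Helios, a factor found in many regulatory T cells.

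The cells came from 6-week-old male B6 mice. They were taken from the lamina propria of the colon and sorted as CD45+ TCRb+ CD4+ after digestion with collagenase and dispase. Single cells were captured by inDrops, a droplet method in which poly-A RNA is primed with oligo dT. The labels give 4 samples in 1 group, Btheta_colon_1 to Btheta_colon_4, with no untreated or other group, and nothing in them says how many mice stand behind a sample. Every cell described here thus shares the Btheta condition named in these titles, and no value below shows its effect. The 4 samples share 1 counts table whose barcodes carry no sample, so no value per sample could be given, no test was possible and no p-value is printed. The comparisons are therefore between cells of 1 pool.

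A barcode counted as a cell where it held 500 or more counts, 200 or more detected genes and under 20% mitochondrial counts. The kept cells held a median of 1235.5 counts (interquartile range 963 to 1723.25, range 501 to 13023) and 612 genes. No barcode was repeated in the table. All 7 of the CD4 T cell markers checked had counts on both sides of the Foxp3 gate, summing to 4795 CPM (counts scaled to a common total) in Foxp3-positive cells and 4734 CPM in Foxp3-negative cells. A total of 30 kept barcodes carried 3 or more counts of epithelial, stromal, myeloid or B and plasma cell markers. Those markers were unevenly divided. The 10 measured epithelial genes summed to 54.4 CPM in Foxp3-positive and 2842 CPM in Foxp3-negative cells, to 20.4 CPM in Gata3-positive and 4421 CPM in Gata3-negative cells, and to 735 CPM in Ikzf2-positive and 2578 CPM in Ikzf2-negative cells. The ranges under alternatives given below include the values without those 30 barcodes. Naive T cell markers were also uneven, the 6 genes summing to 173 CPM in Foxp3-positive and 594 CPM in Foxp3-negative cells, 285 CPM in Gata3-positive and 677 CPM in Gata3-negative cells, and 207 CPM in Ikzf2-positive and 592 CPM in Ikzf2-negative cells. The part of this unequal makeup in the results below was not tested.

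Levels are CPM of the counts summed over the cells of a side. Ratios are log2 of the positive over the negative side, followed by an exact conditional 95% interval. These intervals, the exact Poisson intervals of levels and the exact binomial (Clopper-Pearson) intervals of shares cover counting error only, and not the spread between cells, samples or mice. Across all kept cells a count of 0 allows a level of up to 1.94 CPM, taking 3 counts as the limit. Levels of different genes are not set against each other, since reads were not scaled to length. No cell type is known to lack chaperones, so the share of cells that free RNA alone would give could not be measured for these genes.

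Of the 83 members, 39 had at least 50 counts, 34 had 1 to 49, and 10 had none. The 10 without a count were Dnajb3, Dnajb7, Dnajb8, Dnajc5b, Dnajc5g, Hspa12a, Hspa1l, Hspb2, Hspb3 and Hspb9. The members together held 15295 counts, which was 0.987% of all counts in the kept cells. The stress-induced members gave 484 counts, or 312 CPM (285 to 342), and the constitutive members gave 14811 counts, or 9561 CPM (9408 to 9717). The constitutive sum rested on few genes, with Hspa8 giving 23.5% of it, Hsp90ab1 13.1% and the top 5 genes 50.9%. Small heat shock proteins hold unfolded clients without ATP. Of the 8 members grouped under that name here, 5 had counts, and they summed to 103. Hspb11 gave 51 of these counts. Whether each of the 8 has this activity was not tested.

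Hspa8 encodes the constitutive cytosolic HSP70 and lies at chr9:40800984-40810087 on the plus strand of mm10. It was detected in 845 cells (80.5%, 77.9% to 82.8%). The HSP90 gene Hsp90ab1 (chr17:45567775-45573271, minus strand) was detected in 671 cells (63.9%). Hspa5, the HSP70 of the endoplasmic reticulum known as BiP, was detected in 430 cells (41.0%) and lies at chr2:34771970-34777547 on the plus strand. These shares depend on depth, and at the depth of these cells an undetected transcript was not shown to be absent.

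The promoters of the stress-induced HSP70 pair are shown because the 2 genes are near-identical copies, which bears on how their counts can be told apart. The sequences are the 250 bases before the start annotated by RefSeq on GRCm38.p6, which can differ from the GENCODE start used for gene coordinates. They are read 5′ to 3′ on the minus strand. Capitals mark the letters GAANNTTC, a pair of inverted heat shock units, which begins 104 bases before the start in both genes.
Hspa1a (chr17:34972157-34972406): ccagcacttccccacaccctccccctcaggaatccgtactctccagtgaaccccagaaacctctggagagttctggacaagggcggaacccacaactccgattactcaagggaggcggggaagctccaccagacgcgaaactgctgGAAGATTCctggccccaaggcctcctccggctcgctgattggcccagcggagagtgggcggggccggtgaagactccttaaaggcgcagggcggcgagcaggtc
Hspa1b (chr17:34959239-34959488): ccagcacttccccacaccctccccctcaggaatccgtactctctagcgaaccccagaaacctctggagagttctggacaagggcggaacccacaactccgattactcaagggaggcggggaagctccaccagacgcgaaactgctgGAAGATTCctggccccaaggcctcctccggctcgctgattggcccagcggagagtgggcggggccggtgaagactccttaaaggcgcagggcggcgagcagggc
The 250 bases differed at 3 positions, counted from 1 at the first printed base with the Hspa1a base first, namely C44T, T47C and T249G, so 98.8% were identical. Of the 50-base words of the whole transcripts, 58.8% of those of Hspa1a and 62.3% of those of Hspa1b also occurred in the other gene, but none did in the last 500 bases. How reads shared by both genes were assigned is not given in the sources used here, so the split of counts between Hspa1a and Hspa1b is uncertain and their sum is also given.

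The other stress-induced gene with an inverted pair of heat shock units in its window was Hsph1, which encodes the HSP110 exchange factor of HSP70. Its 30-base stretch is shown with the letters TTCNNGAA in capitals. Dnajb6, a constitutive J protein gene that keeps aggregation-prone chains soluble, is shown beside it because it held the longer match TTCNNGAANNTTC or its reverse complement GAANNTTCNNGAA, as did the mitochondrial chaperone genes Hspd1 and Hspe1.
Hsph1 (chr5:149636351-149636380, minus strand): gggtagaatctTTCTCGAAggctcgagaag
Dnajb6 (chr5:29735844-29735873, plus strand): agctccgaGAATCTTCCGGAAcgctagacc
Both strands of 32851 windows of 250 bases, from 27025 genes, were searched, and 68 members had a window. A gene was counted once where any of its windows matched. The 3-unit match was found for 3 of the 68 members (4.41%) and for 0.514% of all genes. The 2-unit letters GAANNTTC were found for 13 members (19.1%) and 7.73% of all genes, and TTCNNGAA for 7 members (10.3%) and 8.11% of all genes. As shares of all windows these were 0.466%, 6.69% and 7.17%. The 2-unit letters overlap the 3-unit match and read the same on both strands. Dnajb1, the J protein partner of stress-induced HSP70, held none of these matches in its window. In Hsph1 and Dnajb6 the marked letters lie inside the GENCODE gene span, since the RefSeq starts used lie further along the gene. A match is a description of letters, not of binding.

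In the kept cells, stress-induced counts were found in a minority of cells. At least 1 of the 4 genes was detected in 223 of 1050 cells (21.2%, 18.8% to 23.8%), while the constitutive members were detected in 1045 cells (99.5%) at a median of 11 counts per cell. Of the cells with a stress-induced count, 106 had 1, 56 had 2 and 61 had 3 or more, up to 10.

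Hsph1 (chr5:149614287-149636376) was detected in 112 cells (10.7%, 8.86% to 12.7%) with 234 counts. Dnajb1 (chr8:83608193-83612653, plus strand) was detected in 107 cells (10.2%, 8.43% to 12.2%) with 170 counts. Hspa1b (chr17:34956436-34959238) had 58 counts in 24 cells (2.29%, 1.47% to 3.38%), and Hspa1a (chr17:34969190-34972156) had 22 counts in 14 cells. The variance of the count per cell was 2.57 times its mean for Hsph1, 2.09 times for Dnajb1 and 4.12 times for Hspa1b. Counting intervals assume a ratio of 1 and are therefore narrower than the spread between cells.

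A few cells carried much of each gene. Cells with 3 or more counts held 115 of the Hsph1 counts (49.1%, 31 cells), 55 of the Dnajb1 counts (32.4%, 15 cells) and 40 of the Hspa1b counts (69.0%, 8 cells). Of the 58 Hspa1b counts, 18 lay in the 30 barcodes with markers of other cell types. The ratios of Hspa1b by gate are therefore given with and without those barcodes.

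The 4 genes were mostly detected in different cells, with 192 cells holding 1 of them, 28 holding 2 and 3 holding 3. Hsph1 was detected in 17.8% of cells with Dnajb1 and 9.86% of cells without it, over 19 cells with both. After every cell was thinned to 500 counts, both were left in 3 cells, with Hsph1 in 6.82% of cells with Dnajb1 and 5.17% of cells without. These shares are a description over cells that share 1 library and differ in depth.

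The first comparison asks whether regulatory T cells, read by Foxp3 detection, differed in chaperone transcripts from the other CD4 T cells. A total of 332 cells had at least 1 Foxp3 count (median 1304.5 counts per cell) and 718 had none (median 1215). Dropout leaves some expressing cells on the negative side of each gate. The stress-induced sum was 313 CPM in Foxp3-positive and 312 CPM in Foxp3-negative cells (0.00, -0.28 to 0.28). Within this equal sum, Hsph1 stood higher in Foxp3-positive cells and Hspa1b lower.

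Hsph1 was at 181 CPM in Foxp3-positive cells (93 counts) and 136 CPM in Foxp3-negative cells (141 counts), a log2 ratio of 0.41 (0.01 to 0.79). After thinning it was detected in 6.63% of Foxp3-positive and 4.60% of Foxp3-negative cells. Dnajb1 was at 97.1 CPM in Foxp3-positive and 116 CPM in Foxp3-negative cells (-0.26, -0.76 to 0.23), an interval that includes 0. Hspa1b was at 21.4 CPM in Foxp3-positive cells (11 counts) and 45.4 CPM in Foxp3-negative cells (47 counts), a ratio of -1.09 (-2.18 to -0.12). The ratio of Hspa1b was -1.88 without the barcodes with markers of other cell types and changed sign after thinning, to 0.44. Hspa1a was at 13.6 CPM (7 counts) in Foxp3-positive and 14.5 CPM (15 counts) in Foxp3-negative cells. Hspa1a and Hspa1b together stood at 35.0 CPM in Foxp3-positive and 59.9 CPM in Foxp3-negative cells (-0.78, -1.62 to 0.00).

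The Gata3 gate divided 572 positive cells (median 1336 counts) from 478 negative cells (median 1161). The stress-induced sum was 333 CPM in Gata3-positive and 285 CPM in Gata3-negative cells (0.23, -0.04 to 0.50). Hsph1 carried this difference, at 175 CPM in Gata3-positive cells (154 counts) and 120 CPM in Gata3-negative cells (80 counts), a ratio of 0.54 (0.14 to 0.95). Without Hsph1 the ratio of the sum was -0.054. Thinned shares of Hsph1 were 6.29% (4.45% to 8.61%) in Gata3-positive and 3.97% (2.41% to 6.14%) in Gata3-negative cells, with overlapping intervals. Dnajb1 was at 111 CPM in Gata3-positive and 108 CPM in Gata3-negative cells (0.04, -0.41 to 0.50). Hspa1b was at 35.2 CPM in Gata3-positive and 40.5 CPM in Gata3-negative cells, and its ratio of -0.20 became 0.67 without the barcodes with markers of other cell types. Hspa1a had 11 counts on each side.

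The Ikzf2 gate divided 358 positive cells (median 1339 counts) from 692 negative cells (median 1206). The stress-induced sum was 295 CPM in Ikzf2-positive and 322 CPM in Ikzf2-negative cells (-0.13, -0.41 to 0.15). Hsph1 was again on the higher side in the positive cells, at 174 CPM in Ikzf2-positive and 138 CPM in Ikzf2-negative cells (0.34, -0.05 to 0.72). Dnajb1 went the other way, at 80.9 CPM in Ikzf2-positive cells (45 counts) and 126 CPM in Ikzf2-negative cells (125 counts), a ratio of -0.64 (-1.16 to -0.14). Its thinned shares were 3.35% (1.74% to 5.78%) in Ikzf2-positive and 4.62% (3.18% to 6.47%) in Ikzf2-negative cells, with overlapping intervals. Hspa1a had 4 counts in Ikzf2-positive cells (7.19 CPM) and 18 in Ikzf2-negative cells (18.1 CPM), a ratio of -1.34 (-3.36 to 0.27), and Hspa1b was at 32.3 CPM in Ikzf2-positive and 40.3 CPM in Ikzf2-negative cells (-0.32, and -0.11 without the other-type barcodes). The 3 gates share all their cells and overlap, so their results are not independent of each other.

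**Figure D1:**
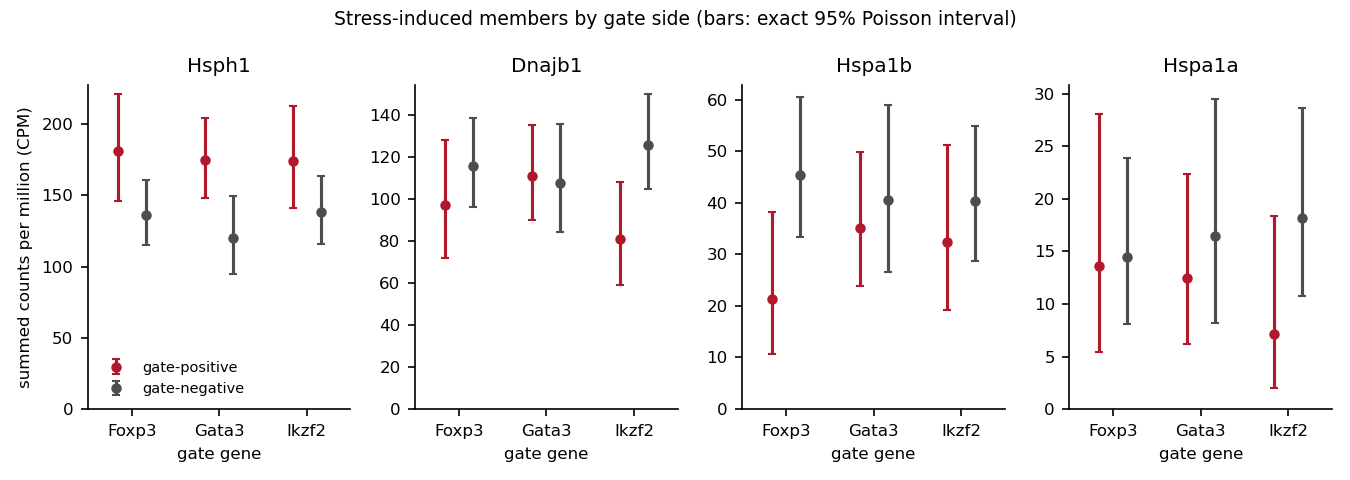
Level of each stress-induced gene (CPM of summed counts, exact Poisson 95% intervals) on the positive and negative side of the Foxp3, Gata3 and Ikzf2 gates. Hsph1 stood higher on the positive side of each gate, at 174 to 181 CPM against 120 to 138 CPM, while Dnajb1 stood lower in Ikzf2-positive cells at 80.9 CPM against 126 CPM.

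The direction of Hsph1 held under each alternative run. The log2 ratio lay between 0.23 and 0.42 for Foxp3, 0.38 and 0.67 for Gata3, and 0.27 and 0.64 for Ikzf2. The ratio of Dnajb1 for Ikzf2 lay between -1.19 and -0.49. No test over samples stands behind these directions.

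The 3 gates were then combined into 8 classes, a division chosen after the data were seen. The stress-induced sum was 266 CPM (201 to 347) in the 121 cells with all 3 genes and 282 CPM (233 to 339) in the 286 cells with none. The highest of the 8 sums was 433 CPM (325 to 565) in the 80 cells with Foxp3 and Gata3 but no Ikzf2. The lowest was 206 CPM (107 to 361) in the 45 cells with Foxp3 and Ikzf2 but no Gata3. The intervals of all 8 classes overlapped one another, and no class was tested against another.

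Between the cells with all 3 genes and those with none, the stress-induced members went in opposite directions. Hsph1 was at 208 CPM in cells with all 3 and 107 CPM in cells with none (0.96, 0.31 to 1.60). Dnajb1 was at 48.4 CPM in cells with all 3 and 112 CPM in cells with none, a ratio of -1.21. Hspa1a and Hspa1b together had 2 counts (9.69 CPM) in cells with all 3 and 25 counts (62.4 CPM) in cells with none, a ratio of -2.69. Epithelial markers stood at 19.4 CPM in cells with all 3 and 6307 CPM in cells with none, and their part was not tested. The constitutive sum was 9178 CPM in cells with all 3 and 9639 CPM in cells with none, a ratio of -0.07 (-0.15 to 0.01).

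**Figure D2:**
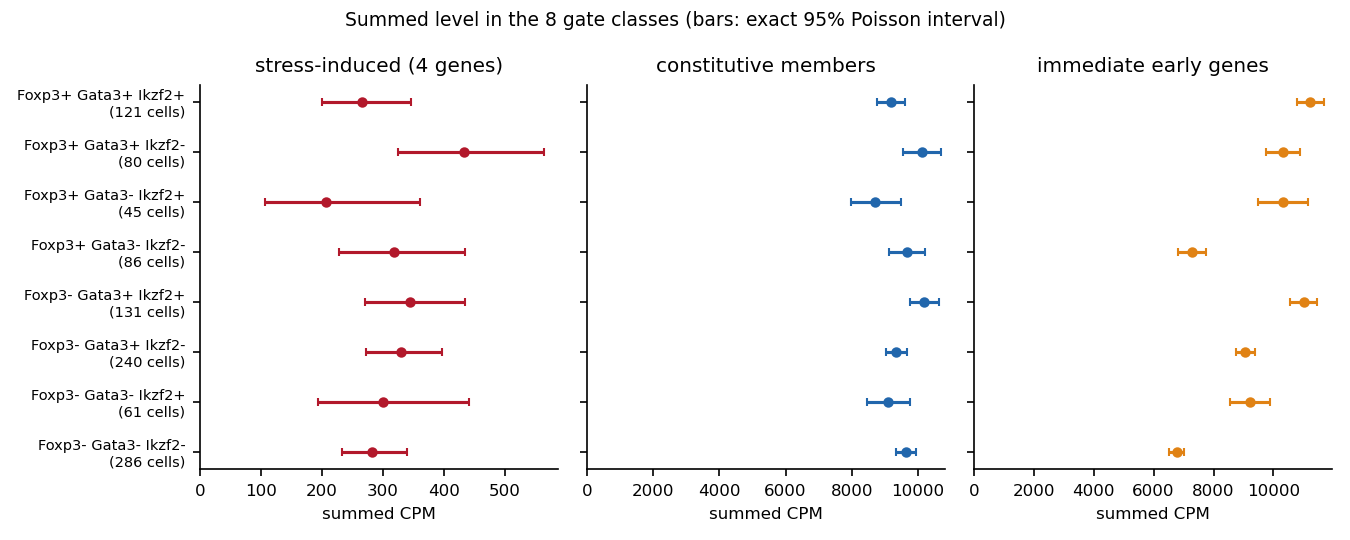
Summed level (CPM, exact Poisson 95% intervals) of the stress-induced, constitutive and immediate early genes in the 8 classes of cells by Foxp3, Gata3 and Ikzf2 detection. The stress-induced sum lay between 206 and 433 CPM with wide intervals, and the immediate early sum stood at 11227 CPM in cells with all 3 genes and 6767 CPM in cells with none.

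Within Foxp3-positive cells, the stress-induced sum was 253 CPM in those with Ikzf2 and 376 CPM in those without (-0.57, -1.04 to -0.10). Within Foxp3-negative cells it was 332 CPM in those with Ikzf2 and 304 CPM in those without (0.13, -0.23 to 0.48). The difference between these 2 ratios was not tested. Dnajb1 had 14 counts (52.9 CPM) in Foxp3-positive cells with Ikzf2 and 36 counts (144 CPM) in those without, a ratio of -1.44 (-2.45 to -0.52). In Foxp3-negative cells Dnajb1 was at 106 CPM with Ikzf2 and 120 CPM without. Hspa1a and Hspa1b together had 3 counts in Foxp3-positive cells with Ikzf2 and 15 in those without. Proliferation markers stood at 129 CPM in Foxp3-positive cells with Ikzf2 and 384 CPM in those without, and their part was not tested. These divisions were also chosen after the data were seen.

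The constitutive members differed little in sum across the gates. They stood at 9468 CPM in Foxp3-positive and 9608 CPM in Foxp3-negative cells (-0.02, -0.07 to 0.03). The values were 9614 CPM in Gata3-positive and 9492 CPM in Gata3-negative cells (0.02, -0.03 to 0.07). For Ikzf2 they were 9491 CPM in positive and 9601 CPM in negative cells (-0.02, -0.07 to 0.03). Summed levels of this kind do not tell a smaller share of expressing cells from less RNA per cell.

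Members past 1.5-fold were counted among the 39 with at least 50 counts over both sides, a threshold of size and not a test. On the positive side of the Foxp3 gate 0 members were 1.5-fold higher, against 10.3% of the 4789 genes with at least 50 counts, and 2 were lower, against 11% of all such genes. In Gata3-positive cells 0 were higher, against 10.1%, and 3 were lower, against 8.23%. In Ikzf2-positive cells 0 were higher, against 10%, and 2 were lower, against 9.71%. The median log2 ratio of the members was -0.05 for Foxp3, 0.04 for Gata3 and -0.07 for Ikzf2, beside 0.01, 0.03 and 0.01 over all genes tested. Ratios within 0.25 of 0 were found for 20, 29 and 22 of the 39 members. The share of genes past 1.5-fold depends on counts per gene, and the members were not matched to other genes for this.

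**Figure D3:**
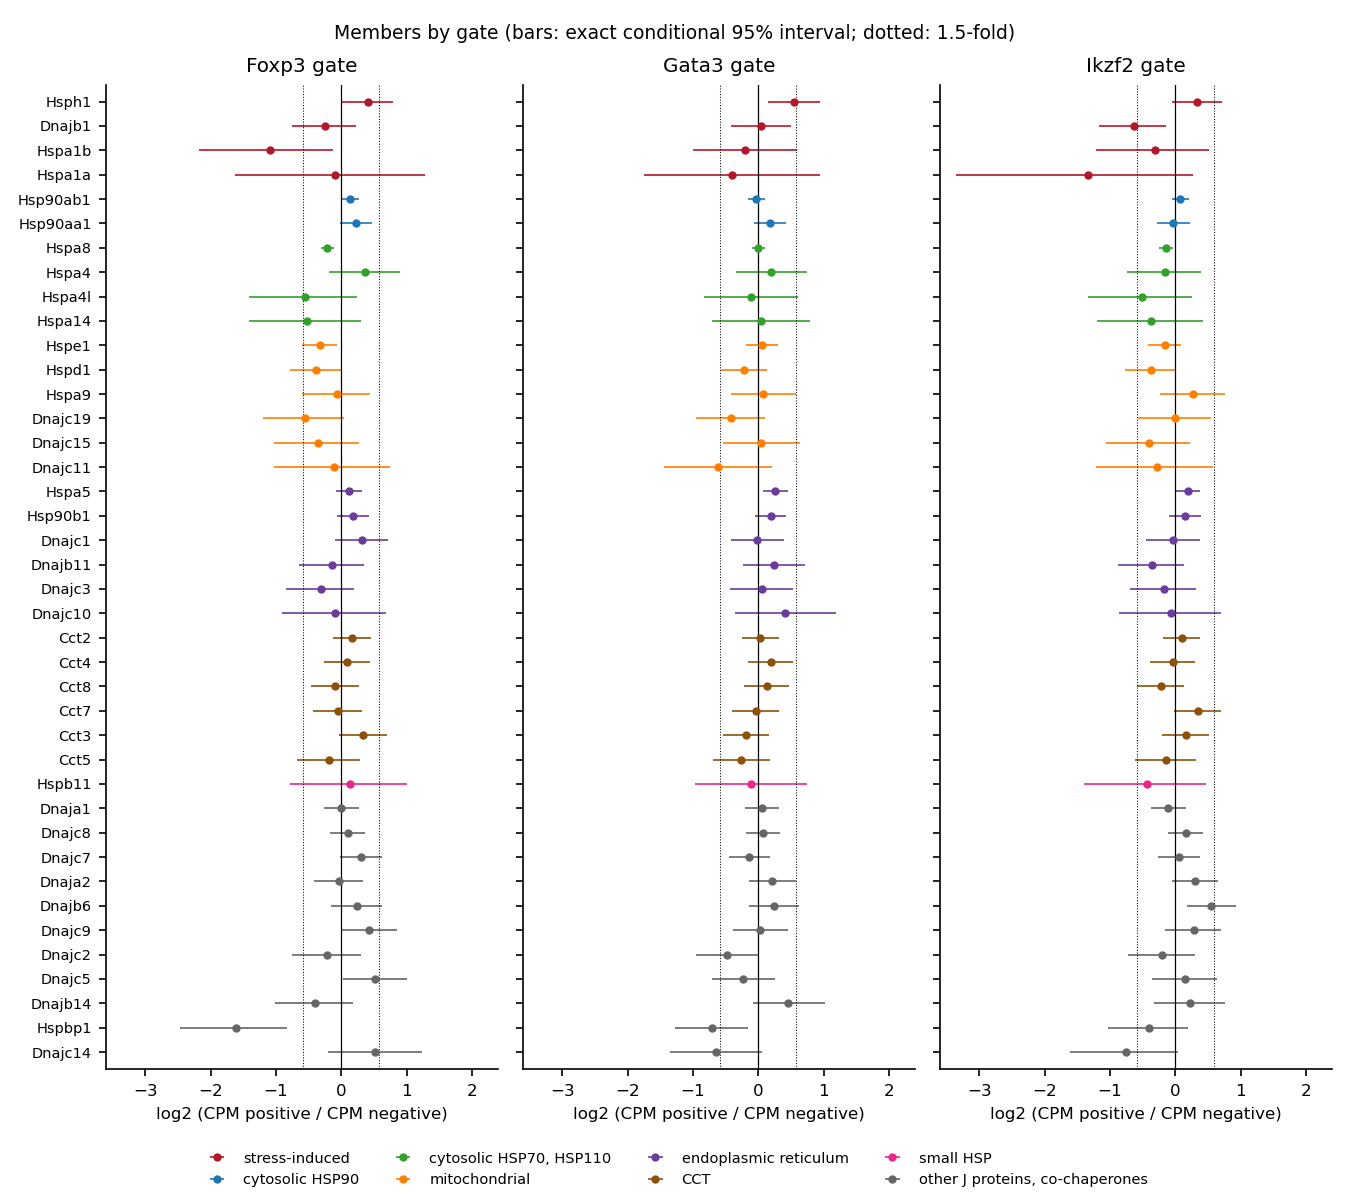
Log2 ratio of the positive over the negative side of each gate for the 39 members with at least 50 counts. Hspa1a, with 22 counts, is also drawn. Bars are exact conditional 95% intervals and dotted lines mark 1.5-fold. Most ratios lie near 0, and Hspbp1 in the Foxp3 gate stands lowest at -1.61.

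The lower members were Hspa1b and Hspbp1 for Foxp3, Dnajc11, Dnajc14 and Hspbp1 for Gata3, and Dnajb1 and Dnajc14 for Ikzf2. Hspbp1 (chr7:4660521-4685068, minus strand) encodes a nucleotide exchange factor that releases clients from HSP70. It was at 31.1 CPM in Foxp3-positive cells (16 counts) and 94.7 CPM in Foxp3-negative cells (98 counts), a ratio of -1.61 (-2.47 to -0.84). Thinned, it was detected in 2.11% of Foxp3-positive and 4.04% of Foxp3-negative cells. Its Foxp3 ratio lay between -1.82 and -0.98 under the alternatives. For Gata3 it was at 57.8 CPM in positive and 94.4 CPM in negative cells (-0.71, -1.27 to -0.15). For Ikzf2 it was at 61.1 CPM in positive and 80.6 CPM in negative cells, an interval that includes 0.

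Dnajc11, a J protein of the mitochondrial inner membrane organising system, was at 28.4 CPM in Gata3-positive and 43.5 CPM in Gata3-negative cells (-0.62). Dnajc14, a J protein of the endoplasmic reticulum membrane, was at 37.4 CPM in Gata3-positive and 58.4 CPM in Gata3-negative cells (-0.64), which became 0.12 after thinning. It was at 32.3 CPM in Ikzf2-positive and 54.4 CPM in Ikzf2-negative cells (-0.75). The intervals of Dnajc11 and Dnajc14 included 0.

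Cytosolic HSP90 and HSP70 leaned in opposite directions in the Foxp3 gate. The HSP90 genes Hsp90aa1 and Hsp90ab1 summed to 1737 CPM in Foxp3-positive and 1561 CPM in Foxp3-negative cells (0.15, 0.03 to 0.27), although the ratio lay between -0.01 and 0.18 under the alternatives. Hsp90ab1 was at 1327 CPM in Foxp3-positive and 1211 CPM in Foxp3-negative cells. Hsp90aa1, the isoform more readily induced by stress, was at 410 CPM in Foxp3-positive and 350 CPM in Foxp3-negative cells. The cytosolic HSP70 set summed to 2213 CPM in Foxp3-positive and 2537 CPM in Foxp3-negative cells (-0.20, -0.30 to -0.10), and with counts capped at 1 its ratio was -0.06.

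Hspa8 was most of that set. It stood at 2032 CPM in Foxp3-positive and 2355 CPM in Foxp3-negative cells (-0.21, -0.32 to -0.11), and at 2106 CPM in Ikzf2-positive and 2327 CPM in Ikzf2-negative cells (-0.14, -0.25 to -0.04). The share of cells with Hspa8 after thinning lay the same way for Foxp3, at 55.1% of Foxp3-positive and 60.4% of Foxp3-negative cells, but the opposite way for Ikzf2, at 62.8% (57.6% to 67.9%) of Ikzf2-positive and 56.6% (52.9% to 60.4%) of Ikzf2-negative cells. In the Gata3 gate it was at 2249 CPM in positive and 2246 CPM in negative cells (0.00). Its Foxp3 ratio lay between -0.27 and -0.10 and its Ikzf2 ratio between -0.34 and -0.03 under the alternatives. None of these differences reached 1.5-fold.

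The summed level of the mitochondrial chaperones was lower in Foxp3-positive cells, which did not hold for each gene. The 7 genes summed to 731 CPM in Foxp3-positive and 905 CPM in Foxp3-negative cells (-0.31, -0.49 to -0.13), with ratios between -0.43 and -0.24 under the alternatives. The Foxp3 ratios of single genes were -0.56 for Dnajc19, -0.38 for Hspd1, -0.36 for Dnajc15, -0.33 for Hspe1 and -0.12 for Dnajc11. Hspa9 was nearly even at -0.07 (-0.60 to 0.45), and Dnaja3, with few counts, was at 0.23 (-0.83 to 1.24). Of these genes, only Hspe1 had an interval that left out 0. Dnajc19, Dnajc15, Hspa9 and Dnaja3 were named after their values were seen. In the Gata3 gate the sums were 830 CPM in positive and 869 CPM in negative cells (-0.07). In the Ikzf2 gate they were 785 CPM in positive and 882 CPM in negative cells (-0.17, -0.34 to 0.00).

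Hspe1 and Hspd1 encode the lid and the barrel of the mitochondrial folding chamber, HSP10 and HSP60, and are transcribed away from each other from a shared start region. Hspe1 lies at chr1:55088132-55091307 on the plus strand and Hspd1 at chr1:55077835-55088243 on the minus strand. The 2 annotated spans overlap at their starts on opposite strands, and whether counting used strand is not given in the sources used here, so counts from the overlap are uncertain. The stretch with overlapping 3-unit heat shock matches is shown in capitals because it lies in the windows of both genes.
Hspe1 (chr1:55088053-55088082, plus strand): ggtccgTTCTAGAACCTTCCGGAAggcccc
Hspe1 was at 315 CPM in Foxp3-positive and 396 CPM in Foxp3-negative cells (-0.33, -0.60 to -0.07). Hspd1 was at 148 CPM in Foxp3-positive and 192 CPM in Foxp3-negative cells (-0.38, -0.78 to 0.01). For Ikzf2 the values were 343 CPM in positive and 384 CPM in negative cells for Hspe1, and 149 CPM in positive and 193 CPM in negative cells for Hspd1. In the Gata3 gate Hspe1 was at 375 CPM in positive and 361 CPM in negative cells (0.06, -0.19 to 0.30). Hspd1 was at 166 CPM in Gata3-positive and 193 CPM in Gata3-negative cells (-0.22, -0.58 to 0.13). Joint detection of the pair in single cells was read only after thinning, which leaves few counts per cell. After thinning, Hspe1 was detected in 5 of the 66 cells with Hspd1 (7.58%, 2.51% to 16.8%) and in 13.9% (11.8% to 16.2%) of the 984 cells without it. These intervals overlap, so the shares cannot tell whether the 2 genes tended to be found together or apart.

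The summed chaperones of the endoplasmic reticulum stood slightly higher in Gata3-positive cells, mostly through Hspa5. The 9 genes summed to 1519 CPM in Gata3-positive and 1353 CPM in Gata3-negative cells (0.17, 0.04 to 0.29). They summed to 1492 CPM in Foxp3-positive and 1425 CPM in Foxp3-negative cells (0.07), and to 1484 CPM in Ikzf2-positive and 1427 CPM in Ikzf2-negative cells (0.06). Dnajc14, the J protein of this membrane given above, was not grouped with the 9 and had a Gata3 ratio of -0.64 (-1.36 to 0.06). Hspa5 was at 670 CPM in Gata3-positive and 559 CPM in Gata3-negative cells (0.26, 0.07 to 0.45), and its thinned shares were 24.5% in Gata3-positive and 18.6% in Gata3-negative cells. Hsp90b1, the HSP90 of the endoplasmic reticulum, was at 403 CPM in Gata3-positive and 354 CPM in Gata3-negative cells (0.19, -0.05 to 0.43). Dnajc1, a J protein of its membrane, was at 139 CPM in Gata3-positive and 141 CPM in Gata3-negative cells. Dnajb9, a J protein induced by unfolded proteins and named after its values were seen, went the other way, at 21.5 CPM in Gata3-positive cells (19 counts) and 43.5 CPM in Gata3-negative cells (29 counts), a ratio of -1.01 (-1.93 to -0.13), below the minimum of 50 counts.

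The Hspa5 promoter is shown because Hspa5 and Hsp90b1 share an element of the unfolded protein response. Capitals mark the letters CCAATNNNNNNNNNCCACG, which were searched on both strands and do not overlap the heat shock letters here. The marked letters lie inside the GENCODE span of Hspa5 given above, since the RefSeq start used for the window lies further along the gene.
Hspa5 (chr2:34771840-34772089, plus strand): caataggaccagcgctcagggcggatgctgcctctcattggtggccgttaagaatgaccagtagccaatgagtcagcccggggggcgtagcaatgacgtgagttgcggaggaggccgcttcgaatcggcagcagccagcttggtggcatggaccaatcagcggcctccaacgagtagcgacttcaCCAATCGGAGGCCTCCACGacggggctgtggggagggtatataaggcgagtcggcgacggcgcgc
The element was found for 3 of the 68 members (4.41%), namely Hspa5, Hsp90b1 and Dnajc3, and for 35 of the 27025 genes (0.130%), in 0.113% of all windows. Dnajc3 was at 101 CPM in Gata3-positive and 97.4 CPM in Gata3-negative cells (0.05, -0.43 to 0.54). After thinning, Hsp90b1 was detected in 20.1% (15.1% to 25.9%) of the 229 cells with Hspa5 and 15.0% (12.6% to 17.6%) of cells without it.

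The CCT genes of the rule, which leaves out the ring subunit gene Tcp1, were nearly even in sum across the gates. The 8 genes summed to 1193 CPM in Foxp3-positive and 1129 CPM in Foxp3-negative cells (0.08), to 1150 CPM in Gata3-positive and 1151 CPM in Gata3-negative cells (0.00), and to 1172 CPM in Ikzf2-positive and 1139 CPM in Ikzf2-negative cells (0.04). Cct3 had a Foxp3 ratio of 0.33 (-0.04 to 0.69) and Cct7 an Ikzf2 ratio of 0.35 (-0.01 to 0.70). For Cct2, Cct4, Cct5 and Cct8 the intervals included 0 in each gate. Tcp1 itself, named after its values were seen, was at 264 CPM in Foxp3-positive and 189 CPM in Foxp3-negative cells (0.48, 0.15 to 0.80), while 8.73% of the Foxp3-positive and 7.66% of the Foxp3-negative cells showed it after thinning. Its intervals included 0 in the Gata3 and Ikzf2 gates.

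Among the J proteins of the cytosol and nucleus, Dnajb6 stood higher in Ikzf2-positive cells, at 199 CPM against 136 CPM in Ikzf2-negative cells (0.55, 0.18 to 0.93). It was detected in 19.3% of Ikzf2-positive and 12.4% of Ikzf2-negative cells, and after thinning in 7.54% (5.03% to 10.8%) of Ikzf2-positive and 5.64% (4.04% to 7.62%) of Ikzf2-negative cells. The HSP70 partners Dnaja1 and Dnaja2 had intervals that included 0 in each gate, as did Dnajc7, a co-chaperone of both HSP70 and HSP90, and Dnajc8, which is linked to splicing. Dnaja1 was at 334 CPM on both sides of the Foxp3 gate. Dnajc9, a histone chaperone, was at 152 CPM in Foxp3-positive and 113 CPM in Foxp3-negative cells (0.42, -0.01 to 0.85). Dnajc5, which aids secretory vesicle proteins and was named after its values were seen, was at 120 CPM in Foxp3-positive and 84.1 CPM in Foxp3-negative cells (0.52, with an interval from 0.02 upwards), while its thinned shares were 4.22% of Foxp3-positive and 4.18% of Foxp3-negative cells.

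**Figure D4:**
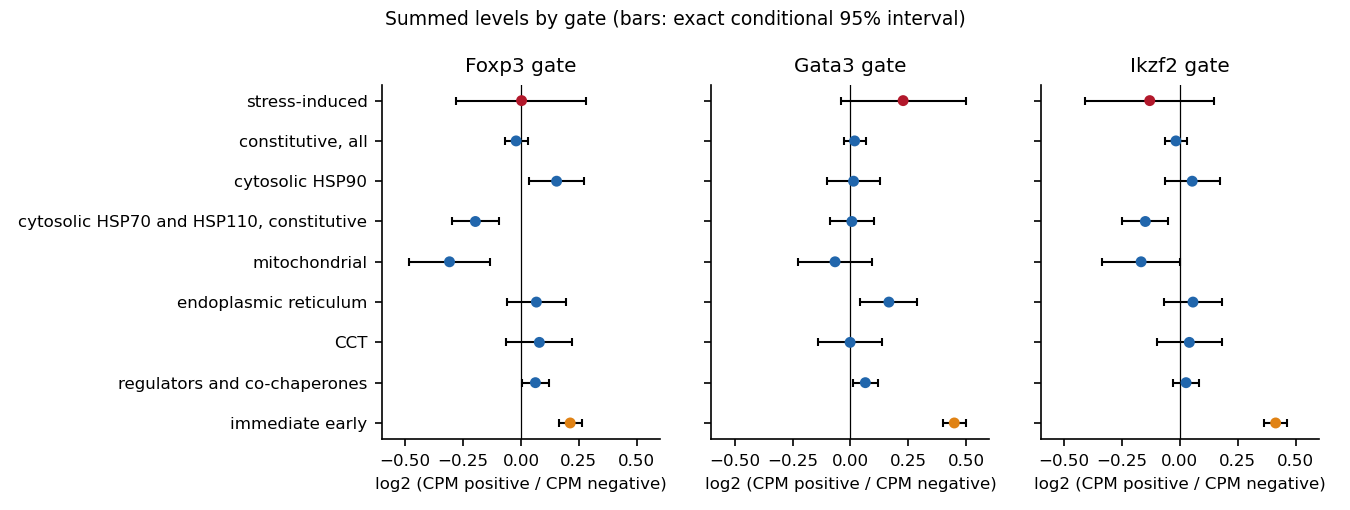
Log2 ratio of summed level on the positive over the negative side of each gate for the chaperone sets by role, the regulator and co-chaperone list and the immediate early list, with exact conditional 95% intervals. Mitochondrial (-0.31) and cytosolic HSP70 (-0.20) sets lie below 0 in the Foxp3 gate, while the immediate early list lies at 0.21 to 0.45.

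Regulators and co-chaperones outside the rule, a list of 42 genes, also had sums near equality. The list summed to 7313 CPM in Foxp3-positive and 7004 CPM in Foxp3-negative cells (0.06), to 7244 CPM in Gata3-positive and 6926 CPM in Gata3-negative cells (0.06), and to 7193 CPM in Ikzf2-positive and 7059 CPM in Ikzf2-negative cells (0.03). Of the 34 genes with at least 50 counts, 1 was 1.5-fold higher and 1 lower for Foxp3, against 10.3% and 11% of all such genes. For Gata3, 1 was higher and 1 lower, against 10.1% and 8.23%. For Ikzf2, 3 were higher and 0 lower, against 10% and 9.71%. The gene Unc45a, a myosin chaperone that works with HSP90, was among the higher ones in each gate. It stood at 62.2 CPM in Foxp3-positive and 40.6 CPM in Foxp3-negative cells (0.61), at 61.2 CPM in Gata3-positive and 29.97 CPM in Gata3-negative cells (1.03, 0.27 to 1.85), and at 64.7 CPM in Ikzf2-positive and 38.3 CPM in Ikzf2-negative cells (0.76).

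Fkbp4, an immunophilin that joins HSP90 to steroid receptors, was lower in Foxp3-positive cells, at 192 CPM against 291 CPM in Foxp3-negative cells (-0.60, -0.94 to -0.27). Grpel1, the exchange factor of mitochondrial HSP70, was at 38.6 CPM in Gata3-positive and 65.9 CPM in Gata3-negative cells (-0.77). Atf6, a sensor of the unfolded protein response, was at 62.9 CPM in Ikzf2-positive and 39.3 CPM in Ikzf2-negative cells (0.68), and the exchange factor gene Bag5 was at 41.3 CPM in Ikzf2-positive and 27.2 CPM in Ikzf2-negative cells (0.60). The intervals of Atf6 and Bag5, and that of Unc45a in the Foxp3 gate, included 0.

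Immediate early genes, which answer receptor signals and tissue handling within minutes, were set beside the stress-induced chaperones. The 12 genes summed to 9936 CPM in Foxp3-positive and 8575 CPM in Foxp3-negative cells (0.21, 0.16 to 0.26). They summed to 10202 CPM in Gata3-positive and 7475 CPM in Gata3-negative cells (0.45, 0.40 to 0.50), and to 10745 CPM in Ikzf2-positive and 8064 CPM in Ikzf2-negative cells (0.41, 0.37 to 0.46). With counts capped at 1 per cell and gene these ratios were 0.03, 0.12 and 0.11. Of the 10 with at least 50 counts, 0 were 1.5-fold higher for Foxp3, against 10.3% of all genes with that many counts. For Gata3, 3 were higher (Dusp1, Egr1 and Fosb), against 10.1%, and for Ikzf2 3 (Dusp1, Egr1 and Zfp36), against 10%. In each gate 0 were 1.5-fold lower, against 11%, 8.23% and 9.71% of genes.

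The phosphatase gene Dusp1 was at 3315 CPM in Gata3-positive and 1717 CPM in Gata3-negative cells (0.95). The AP-1 genes Junb and Jund were at 2555 CPM and 1714 CPM in Ikzf2-positive cells, against 1864 CPM and 1226 CPM in Ikzf2-negative cells. Zfp36, which promotes decay of cytokine transcripts, was at 1060 CPM in Ikzf2-positive and 680 CPM in Ikzf2-negative cells (0.64). With the cells in 3 groups of 350 from low to high immediate early level, the stress-induced sum was 309, 297 and 335 CPM, and the thinned share of cells with a stress-induced count was 8.57%, 10.6% and 13.4%. Hsph1 was higher at each step, at 129, 142 and 187 CPM and at thinned shares of 3.43%, 4.86% and 7.43%, while Dnajb1 was at 116, 123 and 87.0 CPM. In 3 such groups from low to high mitochondrial share the stress-induced sum was 306, 328 and 302 CPM, and the constitutive sum was 9834, 9652 and 9212 CPM. By depth, from low to high, the sum was 292, 301 and 326 CPM.

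Cells with a proliferation marker were set apart after the data were seen, because the chaperones of growth and the cell cycle are among the members. A total of 99 cells had a count of Mki67, Top2a, Birc5, Ccna2, Rrm2 or Ube2c, of which 5 are columns of the table, and 951 had none. Their median counts per cell were 2042 in cells with a marker and 1206 in cells without, and deeper cells are more likely to show any marker. The constitutive sum was 11088 CPM in cells with a marker and 9295 CPM in cells without (0.25, 0.19 to 0.32), and its ratio was 0.13 after thinning and 0.02 with counts capped at 1. The stress-induced sum was 452 CPM in cells with a marker and 288 CPM in cells without (0.65, 0.32 to 0.97), and its ratio was 0.21 after thinning.

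Of the 39 members, 8 were at least 1.5-fold higher in cells with a marker, against 14.4% of the 4790 genes with at least 50 counts, and 1 was lower, against 20.4% of those genes. The 8 were Dnajc3, Dnajc9, Hsp90aa1, Hspa1b, Hspa4, Hspa4l, Hspa9 and Hspd1, and the 1 was Dnajc5, of which Dnajc3, Hspa4, Hspa4l and Hspa9 were named after their values were seen. Dnajc3 changed sign after thinning, to -0.26. After thinning 25 members were tested, of which 4 were higher, against 13.1% of genes, and 6 lower, against 22.8%. Stromal markers also moved with this division, at 1131 CPM in cells with a marker and 335 CPM in cells without. Without the barcodes with markers of other cell types, 5 of 37 members were higher, against 14.8% of genes, and 2 lower, against 20.2%, and the ratio of Hspa1b was 0.37 in place of 1.70.

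The HSP60 gene Hspd1 was at 283 CPM in cells with a proliferation marker and 159 CPM in cells without (0.83), and thinned it was detected in 12.1% of cells with a marker and 5.68% of cells without. Hspa9, the HSP70 of mitochondria, was at 161 CPM in cells with a marker and 82.6 CPM in cells without (0.96), and thinned it was detected in 8.08% of cells with a marker and 3.47% of cells without. Hspa8 was at 2974 CPM in cells with a marker and 2121 CPM in cells without (0.49), and thinned it was detected in 74.7% of cells with a marker and 57.1% of cells without. With counts capped at 1 per cell and gene, the ratio of Hspa8 was -0.40. Capped counts are divided by the genes detected, at a median of 883 in cells with a marker and 602 in cells without. For a gene detected in most cells this lowers the ratio in deeper cells, so -0.40 cannot be set against 0.49. The same limit holds for the other capped ratios of widely detected genes, as positive cells were also deeper in each gate. Dnajc9, which supplies histones during replication, was at 217 CPM in cells with a marker and 110 CPM in cells without (0.98). Hspe1, the partner of Hspd1, was at 383 CPM in cells with a marker and 367 CPM in cells without (0.06). Dnajc5 was at 47.8 CPM in cells with a marker and 105 CPM in cells without (-1.13). Hsp90aa1 was at 631 CPM in cells with a marker and 324 CPM in cells without (0.96, 0.68 to 1.23), while thinned it was detected in 17.2% of cells with a marker and 15.1% of cells without.

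**Figure D5:**
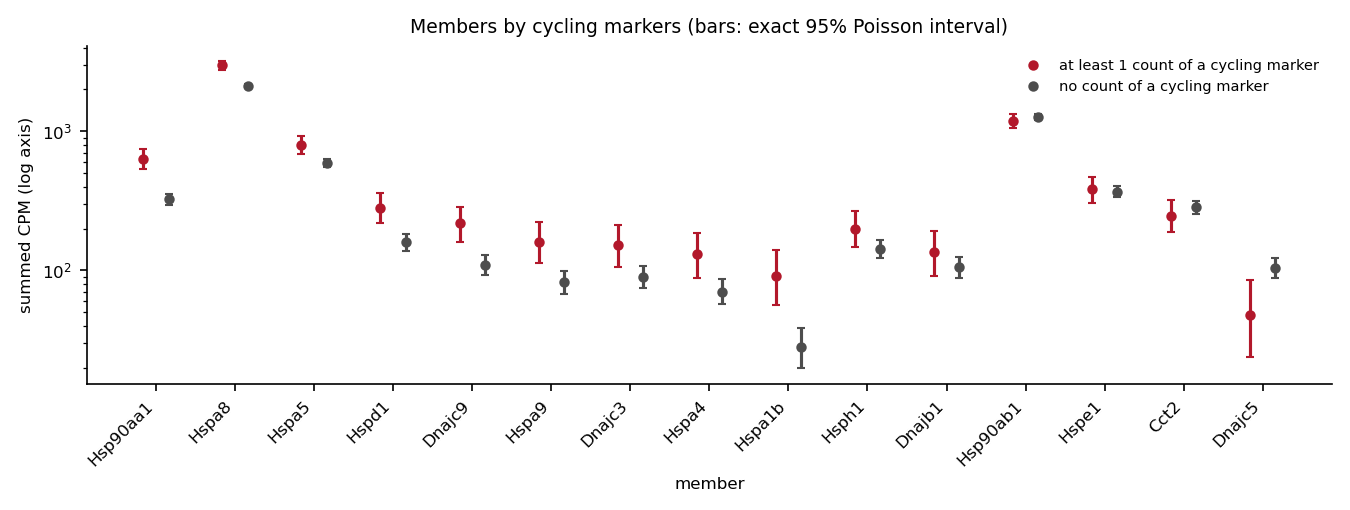
Summed level (CPM, log axis, exact Poisson 95% intervals) of chosen members in cells with a proliferation marker (99) and cells without (951). The log2 ratio was 0.83 for Hspd1, 0.96 for Hspa9, 0.98 for Dnajc9, 0.96 for Hsp90aa1 and -1.13 for Dnajc5.

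Proliferation markers were not even across the gates, at 253 CPM in Foxp3-positive and 371 CPM in Foxp3-negative cells, 369 CPM in Gata3-positive and 283 CPM in Gata3-negative cells, and 243 CPM in Ikzf2-positive and 382 CPM in Ikzf2-negative cells. With the 99 cells left out, the Foxp3 ratio was -0.34 for the mitochondrial set, -0.24 for cytosolic HSP70 and -0.25 for Hspa8. The Hsph1 ratios without those cells were 0.23 for Foxp3, 0.64 for Gata3 and 0.55 for Ikzf2.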

How the data were processed

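The authors deposited whole-number counts per barcode and gene in 1 table for the 4 samples. TopHat2, SAMtools and the mm10 build are named without versions or roles, per the submitters' processing notes. Sorting, inDrops capture and oligo dT priming are per the labels' protocols. Not given in the sources used here are the tool that counted, whether molecular identifiers were collapsed, which annotation was used and how barcodes were filtered, so counts may include amplification copies.

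From the counts, CPM, log2 ratios and exact intervals were computed in Python 3.11.15 with scipy 1.17.1 and pandas 2.3.3. The ratio step had been tested on simulated Poisson counts. That simulation had no added spread between cells, so it does not show how well the intervals cover these data. Gates used at least 1 count. Thinning drew 500 counts per cell without replacement. Scrublet (scanpy 1.11.5) called 8 doublets (0.762%), which stayed in and were left out as an alternative. Coordinates are from GENCODE M21, where 82 of the 83 members are protein coding. The annotation holds 16 pseudogenes with matching names, none with a column. A test on sums per sample had been planned and was replaced by ratios, since barcodes carry no sample. Alternatives covered thinning, capping, depth, other cell types, doublets, gates, denominators, cell weights, the dominant member, count minimums, fold and centring.

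Named members were the 4 stress-induced genes, the 20 constitutive genes with most counts, and those past 1.5-fold in a gate. Of other genes, regulators past 1.5-fold and the 4 immediate early genes with most counts were named. Members and lists were chosen with earlier results of these data known.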

Additional observations from a re-analysis of the deposited data

Results flagged for a closer look

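Chaperone transcripts also appeared in barcodes outside the kept cells, which the comparisons do not use. In the 914 barcodes with under 500 counts, which held 115849 counts at a median of 86.5 per barcode, the stress-induced members stood at 199 CPM (126 to 298) and the constitutive members at 4765 CPM (4376 to 5179). Both were above the limit that a count of 0 allows, and in the kept cells the values were 312 CPM and 9561 CPM. The median mitochondrial share of these barcodes was 33.7%. Whether they hold cells, fragments or free RNA was not tested.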

How the results depend on the processing

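No paired analysis was possible because the labels give 1 group and the barcodes carry no sample, and leaving out each replicate was not run for the same reason. Of 180 alternative values for sums and numbers of members, 126 stayed close to the reported value and 54 moved. Without the member that holds most counts, the stress-induced ratio was -0.41 for Foxp3, -0.054 for Gata3 and -0.62 for Ikzf2, and the constitutive ratio for Foxp3 was 0.036. Without mitochondrial and ribosomal genes in the denominator the constitutive ratio was -0.079 for Foxp3 and -0.069 for Ikzf2, and thinned it was 0.036 for Ikzf2.

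Members 1.5-fold higher, 0 as reported, numbered 1 for Foxp3, 1 for Gata3 and 2 for Ikzf2 after thinning. With a gate at 2 counts they were 2, 2 and 2, and with a minimum of 10 counts 5, 3 and 4. Without cells with a cycling marker they were 1, 2 and 1. With cells of at least 1000 counts there was 1 for Foxp3 and Ikzf2, without other cell types 1 for Foxp3 and Gata3, and without doublets 1 for Foxp3. Members lower for Foxp3, 2 as reported, numbered 0 thinned, 1 without other cell types, 7 with a gate at 2 counts, 4 with the other denominator, 12 at a minimum of 10 counts and 1 at 100. For Gata3, 3 as reported, they numbered 1 thinned, capped, with a gate at 2 counts and at a minimum of 100, 8 at a minimum of 10 and 0 at 2-fold. For Ikzf2, 2 as reported, they numbered 1 capped, 10 and 1 at minimums of 10 and 100, and 0 at 2-fold.

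These numbers have their own backgrounds. After thinning 25 members were tested, and 9.52% of genes were higher for Foxp3, 9.08% for Gata3 and 9.86% for Ikzf2, with 8.19%, 5.92% and 7.86% lower. At a minimum of 10 counts 63 members were tested, with 15.2%, 16.7% and 15.6% of genes higher and 20.9%, 18.1% and 19.3% lower. With a gate at 2 counts 12.2%, 10.3% and 11.8% of genes were higher, and 14.9% were lower for Foxp3 and 8.95% for Gata3. At a minimum of 100 counts 32 members were tested, with 6.50%, 4.02% and 5.11% of genes lower. With the other denominator 12.8% of genes were lower for Foxp3, and at 2-fold 2.42% were lower for Gata3 and 2.92% for Ikzf2. Capped, 2.71% were lower for Gata3 and 4.88% for Ikzf2. Without cells with a cycling marker 11.2%, 10.4% and 10.9% of genes were higher. With cells of at least 1000 counts 11.0% were higher for Foxp3 and 10.1% for Ikzf2. Without other cell types 9.96% were higher for Foxp3 and 9.56% for Gata3, and 9.60% were lower for Foxp3. Without doublets 10.6% were higher for Foxp3.

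For proliferation markers, the thinned stress-induced ratio was 0.21. The constitutive ratio of 0.25 was 0.13 thinned, 0.02 capped, 0.18 without other cell types, 0.36 with a gate at 2 counts, 0.15 with equal weight of cells and 0.18 without Hspa8. The 8 higher members became 4 thinned (13.1% of genes), 5 without other cell types (14.8%) and 1 at 2-fold (5.34%). The 1 lower became 6 thinned (22.8% of genes), 2 without other cell types (20.2%) or with the other denominator (21.6%), and 8 at a minimum of 10 (24.6%). Thinning reversed Hspa1b for Foxp3 (0.44), Dnajc14 for Gata3 (0.12) and Dnajc3 for proliferation markers (-0.26). The causes were not tested. Depth limits single genes, since thinning leaves few counts of the stress-induced members.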
